A study of Arabidopsis thaliana with 6 samples.

Results

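The plant cuticle is the waterproof layer that epidermal cells lay down on their outer wall. It is made of cutin, a polyester of oxygenated fatty acids joined through glycerol, and of waxes, which are derived from very-long-chain fatty acids. In flowers the cuticle also keeps neighbouring organs from fusing and forms the ridges of the petal surface. The genes described here are 43 *Arabidopsis thaliana* genes of wax and cutin synthesis, export, assembly and regulation, chosen by gene identifier. Of these, 42 have a row among the 21799 genes with values in the deposited table, and all 42 passed the filter on low values. *SHN2* (*AT5G11190*), an AP2/ERF-type transcription factor gene, has no row and was not analysed here.

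RNA from inflorescences harvested up to stage 12 of development was profiled in wild-type Col-0 and in plants that combine the *stk*, *ces-4*, *bee1* and *bee3* mutations (called the quadruple mutant), with 3 biological replicates per genotype. The mutant carries lesions in *STK*, a MADS-domain factor gene of ovules and the transmitting tract, and in *CES*, *BEE1* and *BEE3*, which encode related bHLH factors. The *ces-4* allele is a T-DNA insertion in an exon, and 1 protocol note of the labels writes *ces-2* where the sample titles write *ces-4*. Each replicate was a pool of plants and a whole inflorescence, so that epidermis, tapetum, pollen and ovules were measured together. In such bulk samples fewer cells of a type and less RNA per cell cannot be told apart.

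The files give read counts scaled to a common depth (CPM), adjusted by the authors to an effective library size. Between 15.9 and 21.2 M reads per sample fell on the listed genes, and 3 reads corresponded to 0.138 to 0.185 CPM, a limit that covers counting error only. The 4 mutated genes were checked first. *STK* was at 50.3, 54.3 and 49.7 CPM in wild-type replicates 1, 2 and 3 and at 10.4, 10.5 and 9.72 CPM in the mutant. *CES* was at 36.9, 39.5 and 34.5 CPM in wild type and at 1.65, 1.67 and 2.06 CPM in the mutant. *BEE1* lay between 9.93 and 13.2 CPM in wild type and between 2.59 and 3.16 CPM in the mutant, and *BEE3* between 3.71 and 4.88 CPM in wild type and between 0 and 0.23 CPM in the mutant. All 4 fell in the mutant (limma adjusted p between 4e-07 and 0.00056). The 6 floral organ genes listed, which include *AP1*, *AP3*, *PI*, *AG* and *SEP3*, had values in every sample, with sums of 667 to 758 CPM in wild type and 747 to 809 CPM in the mutant. Of these, 5 were higher and 1 lower in the mutant mean, none with an adjusted p under 0.05. For *AP1* and *SEP3* every mutant value lay above every wild-type value, as in 6.92% of all tested genes. Among the 9 epidermal genes listed, 2 were higher and 7 lower in the mutant mean, none of them with an adjusted p under 0.05. Every mutant value of *ANL2* lay below every wild-type value, as in 7.41% of all tested genes. The sums of the 9 genes were 747 to 1043 CPM in wild type and 812 to 862 CPM in the mutant. *PDF1* alone made 289 to 509 CPM of these in wild type and 315 to 391 CPM in the mutant.

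The promoters of the members were read from the TAIR10.1 assembly. Many genes of the outer cell layer carry the L1 box, the element recognised by HD-ZIP factors of the epidermis such as *ATML1* and *PDF2*. The box was searched as TAAATGCA or TAAATGTA on both strands of the 500 bases before the gene start. It was found in 7 of 42 members (16.7%), against 8.52% of the 21100 promoters of tested genes. The boxes closest to a gene start are shown because this was the motif, of the 4 searched, whose share in the members differed most from that in all promoters. Each is written 5′ to 3′ along the strand of its gene, with the box in capitals. In *AT5G33370* the box lies on the opposite strand and therefore reads TACATTTA.
*ABCG11*, chr1:6142309-6142338, plus strand: tctattcatacTAAATGCAaaccatctatc
*ABCG11*, chr1:6142344-6142373, plus strand: ccagactgcatTAAATGTAacaagtaacaa
*KCS9*, chr2:7050712-7050741, plus strand: tcacattaaagTAAATGCAgacatatgcta
*KCS10*, chr2:11173314-11173343, minus strand: aaaaattgtaaTAAATGCAaacataagatc
*AT5G33370*, chr5:12604888-12604917, minus strand: cacaactctagTACATTTAgagttgtctcc
*MYB96*, chr5:25081147-25081176, minus strand: gagaaagagagTAAATGCAttttgctgtcc
The boxes of *ABCG11* end 74 and 39 bases before the gene start, that of *KCS9* 68, that of *KCS10* 46, that of *AT5G33370* 66 and that of *MYB96* 16 bases before it. The other members with a box were *GPAT6* and *MYB30*.

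Factors of the CES and BEE family are bHLH proteins, a class that binds E-boxes, of which the G-box CACGTG is a common form. This hexamer, searched on both strands, was found in 10.3% of the promoters of tested genes and in 2 of 42 members (4.76%), *CER1* and *LACS1*, which are shown with the hexamer in capitals.
*CER1*, chr1:417916-417938, plus strand: tggtgcCACGTGcttcatatatg
*LACS1*, chr2:19392016-19392043, plus strand: ttaccagtaatCACGTGacggtaactgg
The *CER1* match lies 488 bases before the gene start and within the neighbouring gene *AT1G02190*, which the annotation places from 415074 to 418027. The GCC box GCCGCC, an element bound by ERF factors, was in 4.19% of the promoters and in 3 members, *GPAT4*, *MAH1* and *GPAT6*. The CArG box of MADS-domain factors was in 4.44% of the promoters and in 2 members, *ABCG12* and *CYP86A8*. A match describes the letters of a promoter and not a bound site.

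Genotype was tested with limma on log2(CPM + 0.5), with Benjamini-Hochberg adjustment over the 21287 genes that passed the filter, and log2 fold changes below are on that scale. None of the 42 members had an adjusted p under 0.05, while 148 of all tested genes did (0.695%), 28 of them higher and 120 lower in the mutant. The log2 fold change was above 0 in 35 of 42 members (83.3%), against 52.1% of all tested genes. The floral organ genes had the same share, 5 of 6 (83.3%), and the epidermal genes 2 of 9 (22.2%). The median log2 fold change of the 42 members was 0.19, with quartiles of 0.07 and 0.27 and a range of -0.77 to 0.50. Over all tested genes the median was 0.01. At an unadjusted p under 0.05, 9 members were higher and 2 lower, where 3.83% of all tested genes were higher and 5.48% lower. The 3 mutant values all lay above the 3 wild-type values for 9 members and all below them for 2, where 6.92% and 7.41% of all tested genes did so. The members share libraries and were not counted as independent observations, and no test over the set was made.

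**Figure D1:**
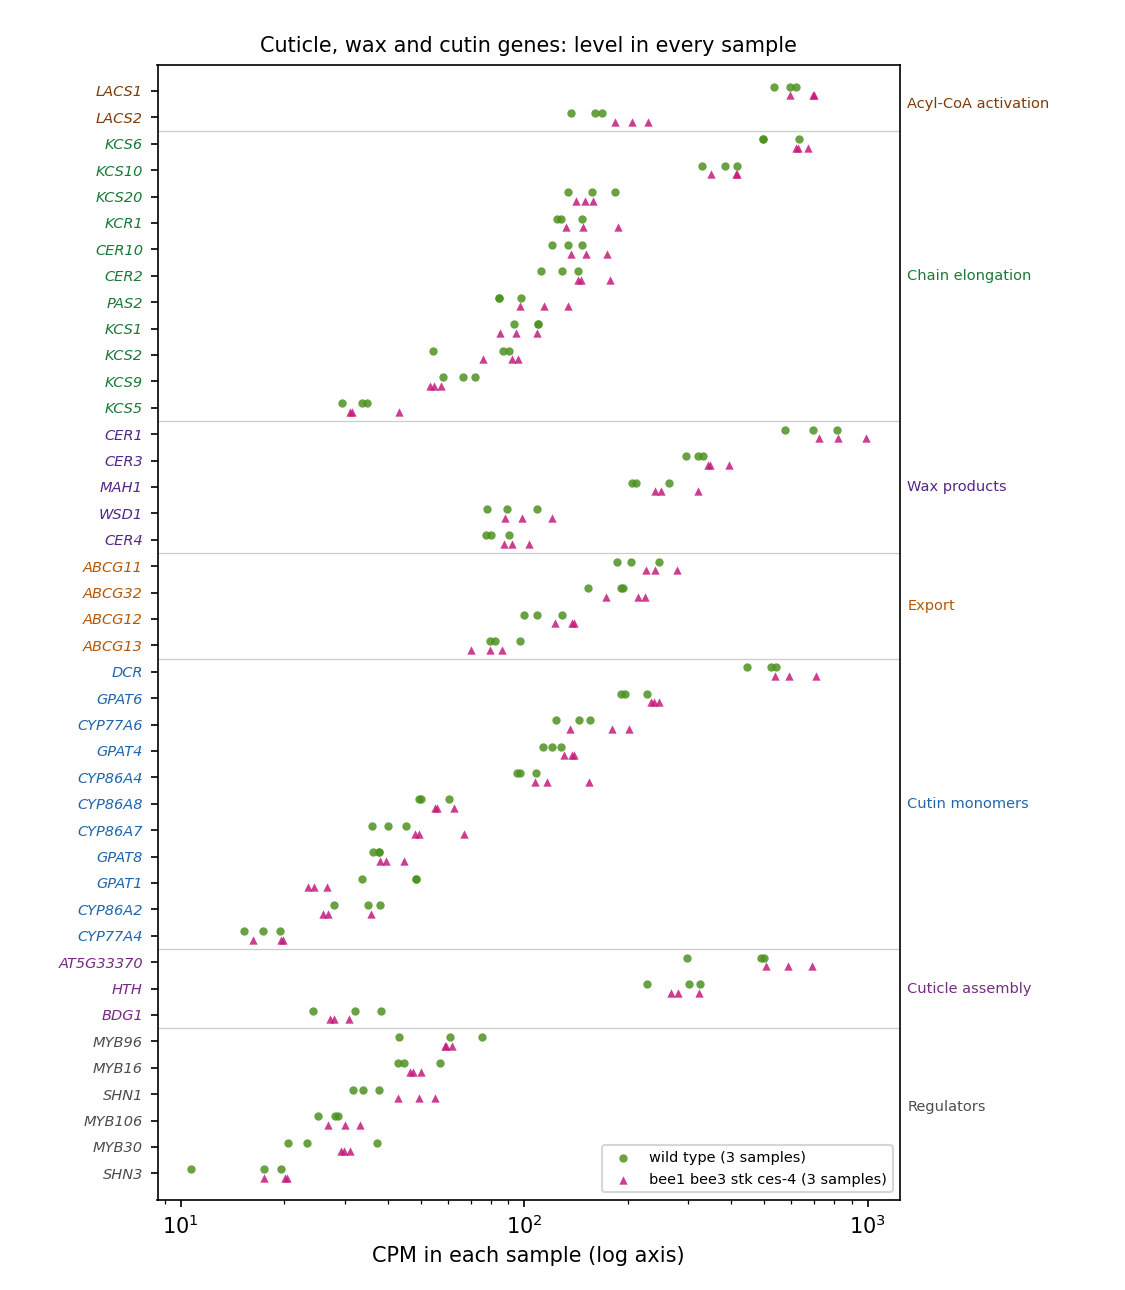
CPM of each of the 42 members in each sample, on a log axis, with wild-type samples as circles and quadruple mutant samples as triangles and the members ordered by role and mean level. In most members the mutant points sit further right on average, but the genotypes separate fully only in 11 members. *GPAT1* is the member with the clearest shift to the left.

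The summed level of the 42 members was 7512, 6803 and 6191 CPM in wild-type replicates 1, 2 and 3 and 7297, 8750 and 7663 CPM in the mutant replicates. On average the mutant reached 116% of wild type, and the groups overlapped, since wild-type replicate 1 lay above mutant replicate 1. A pair of libraries stood out. Mutant replicate 2 was the highest of the 6 samples for 27 of 42 members, and wild-type replicate 3 the lowest for 23. Within its genotype, mutant replicate 2 was highest for 73.8% of the members and for 35.3% of all tested genes, and wild-type replicate 3 was lowest for 61.9% of the members and for 37.3% of all tested genes. Without wild-type replicate 3, 31 members had a log2 fold change above 0, their median was 0.14, and 7 in place of 11 had an unadjusted p under 0.05. Without mutant replicate 2 these values were 32, 0.13 and 4. The tapetum genes listed, which act in the inner anther wall, shared these extremes within each genotype. All 10 were lowest in wild-type replicate 3 within wild type and all 10 highest in mutant replicate 2 within the mutant. Their sums were 510, 678 and 346 CPM in wild type and 370, 590 and 451 CPM in the mutant. In wild-type replicate 2 the lists differed: 9 of 10 tapetum genes were the highest of the 6 samples there. Of the 42 members, 8 were the highest and 13 the lowest in that sample. Wild-type replicate 3 was also the lowest wild-type sample for 8 of 9 epidermal genes, for 5 of 6 floral organ genes and for 13 of 20 further cuticle genes. The epidermal sum was 747 CPM there against 920.01 and 1043 CPM, with *PDF1* at 289 against 424 and 509 CPM. Mutant replicate 2 was the highest mutant sample for 3 of 9, 3 of 6 and 12 of 20 of these. Of the 5 pollen genes listed, 4 were highest in replicate 3 within wild type, and 3 were highest in replicate 2 within the mutant. The part of any of these lists in the values of the members was not tested.

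**Figure D2:**
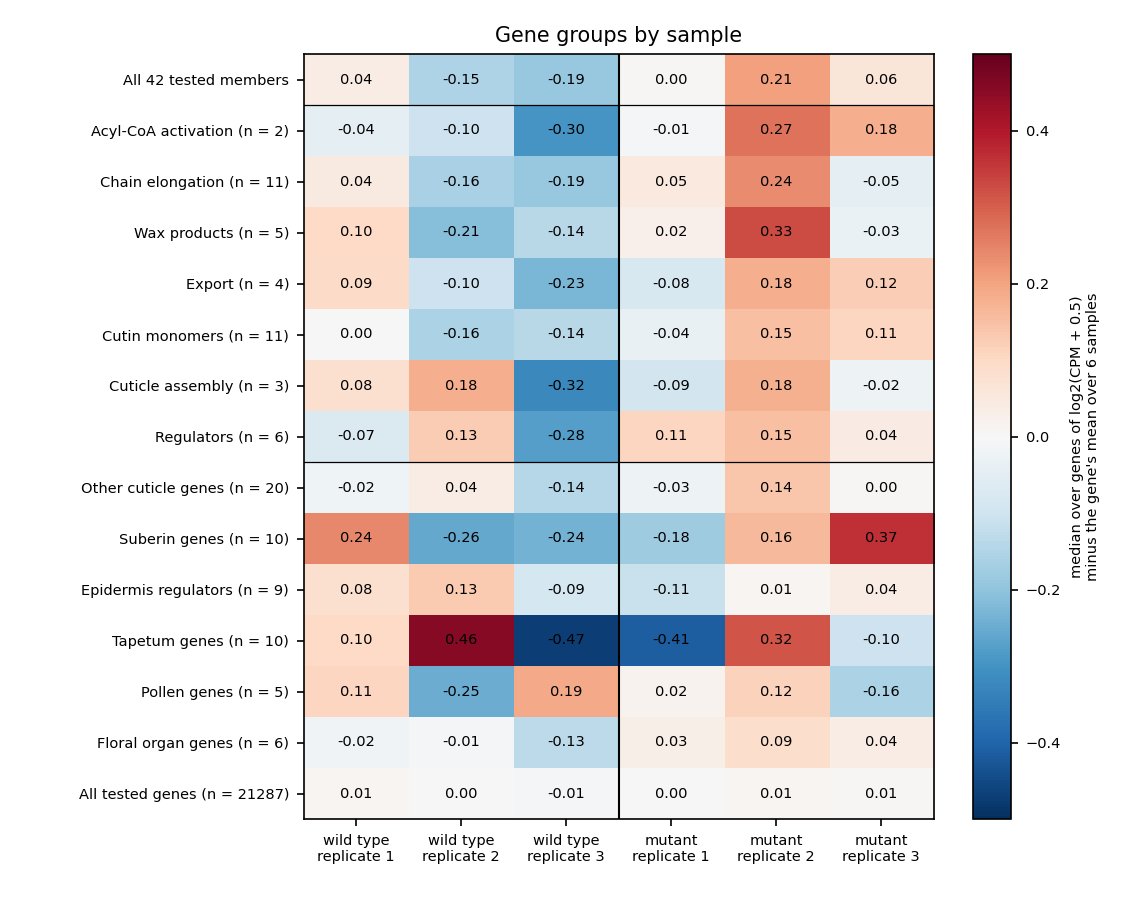
Median over the genes of each group of log2(CPM + 0.5) minus the mean of that gene over the 6 samples, by sample, with n the number of tested genes. The row of all 42 members runs from -0.19 in wild-type replicate 3 to 0.21 in mutant replicate 2, and the row of all tested genes stays within 0.01 of 0. The row named Epidermis regulators holds the 9 epidermal genes listed.

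Fatty acids enter the pathway as acyl-CoA thioesters made by long-chain acyl-CoA synthetases. *LACS1* (*AT2G47240*), which supplies wax and cutin synthesis, was at 617, 594 and 534 CPM in wild type and 593, 699 and 691 CPM in the mutant. The groups overlapped, because mutant replicate 1 lay below the highest wild-type sample. *LACS2* (*AT1G49430*, chromosome 1, 18290942 to 18295905), which acts mainly in cutin synthesis, was at 168, 161 and 137 CPM in wild type and 183, 230 and 206 CPM in the mutant, without overlap. Its log2 fold change was 0.41 (SE 0.11, 95% interval 0.16 to 0.66, limma adjusted p = 0.227).

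Very-long-chain acyl chains are built by an elongase complex, in which the ketoacyl-CoA synthases (KCS) set the chain length. Of 11 members of this step, 8 had a higher and 3 a lower mutant mean, with a median log2 fold change of 0.20. *KCS6* (*AT1G68530*), the main synthase of stem and flower wax, was at 630, 495 and 496 CPM in wild type and 626, 670 and 620 CPM in the mutant. Wild-type replicate 1 was as high as the mutant samples, and the other wild-type samples were lower. *PAS2* (*AT5G10480*), the dehydratase of the complex, was at 98.0, 84.6 and 84.3 CPM in wild type and 114, 134 and 97.4 CPM in the mutant. The groups met only between wild-type replicate 1 and mutant replicate 3, and the log2 fold change was 0.36 (SE 0.12, 95% interval 0.09 to 0.64, limma adjusted p = 0.343).

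*CER2* (*AT4G24510*), a BAHD-type protein that works with *KCS6* on the longest chains, was at 143, 112 and 129 CPM in wild type and 146, 178 and 144 CPM in the mutant. The groups did not overlap, but wild-type replicate 1 and mutant replicate 3 were nearly equal, and the log2 fold change was 0.29 (standard error 0.12, limma adjusted p = 0.495), or 0.19 without mutant replicate 2. *KCS9* (*AT2G16280*, chromosome 2, 7050799 to 7052951), whose promoter carries an L1 box, went the other way. It was at 66.6, 72.0 and 58.2 CPM in wild type and 53.1, 54.5 and 57.2 CPM in the mutant. The highest mutant value lay just under the lowest wild-type value, and the log2 fold change was -0.25 (SE 0.10, 95% interval -0.46 to -0.04, limma adjusted p = 0.438).

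The reductases of the complex, *KCR1* (*AT1G67730*) and *CER10* (*AT3G55360*), had mutant means of 117% and 115% of wild type, with overlapping groups. Among the other synthases, *KCS10* (*AT2G26250*), known as FIDDLEHEAD for the organ fusion of its mutant, was nearly level, with a wild-type mean of 377 ± 43.2 CPM and a mutant mean of 393 ± 38.0 CPM (SD, n = 3). *KCS1* (*AT1G01120*) and *KCS20* (*AT5G43760*) had mutant means of 92.5% and 94.6% of wild type, and *KCS2* (*AT1G04220*) and *KCS5* (*AT1G25450*) of 114% and 108%. In *KCS2* the difference rested on wild-type replicate 2, at 54.2 CPM against 90.6 and 87.0 CPM in the other wild-type samples, and without it the log2 fold change was -0.022.

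All 5 members that turn the chains into wax products had a higher mutant mean, with log2 fold changes of 0.15 to 0.28 and limma adjusted p of at least 0.595. *CER1* (*AT1G02205*), which makes alkanes together with *CER3*, was at 814, 576 and 694 CPM in wild type and 820, 991 and 723 CPM in the mutant. Wild-type replicate 1 lay above mutant replicate 3 and just under mutant replicate 1. *CER3* (*AT5G57800*) was the member of this step whose groups did not overlap, at 332, 321 and 296 CPM in wild type and 343, 395 and 347 CPM in the mutant. The alkane hydroxylase *MAH1* (*AT1G57750*), the wax ester synthase *WSD1* (*AT5G37300*) and the alcohol-forming reductase *CER4* (*AT4G33790*) had mutant means of 119%, 111% and 114% of wild type. For all 5, mutant replicate 2 was the highest of the 6 samples, and without it their log2 fold changes were 0.026 to 0.16.

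Waxes and cutin precursors leave the cell through ABCG transporters of the plasma membrane. *ABCG11* (*AT1G17840*), which exports both lipid classes and whose promoter holds the pair of L1 boxes shown above, was at 247, 204 and 187 CPM in wild type and 226, 278 and 240 CPM in the mutant. *ABCG12* (*AT1G51500*), the CER5 wax transporter, was at 129, 100.2 and 109 CPM in wild type and 123, 140 and 138 CPM in the mutant. In both genes wild-type replicate 1 overlapped with the mutant samples. The log2 fold change of *ABCG12* was 0.25 (SE 0.11, 95% interval 0.01 to 0.49, limma adjusted p = 0.509). *ABCG32* (*AT2G26910*), a cutin precursor transporter, had a mutant mean of 113% of wild type. *ABCG13* (*AT1G51460*), a transporter of the flower cuticle, was the export member with a lower mutant mean, at 91.0% of wild type. *ABCG13* and *ABCG12* lie on the same strand of chromosome 1, 16260 bases apart.

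Cutin monomers are made by cytochrome P450 hydroxylases of the CYP86A and CYP77A families and linked to glycerol by glycerol-3-phosphate acyltransferases (GPATs). Of the 11 members, 9 had a higher and 2 a lower mutant mean, and the median log2 fold change was 0.17. *GPAT1* (*AT1G06520*, chromosome 1, 1993903 to 1996355, minus strand) had the smallest p of all members. It was at 48.2, 48.4 and 33.6 CPM in wild type and 23.4, 24.5 and 26.7 CPM in the mutant. Every mutant value was lower than every wild-type value, and wild-type replicate 3 was the nearest to the mutant. The mean level in the mutant was 57.3% of that in wild type, and the log2 fold change was -0.77 (SE 0.14, 95% interval -1.09 to -0.45, limma adjusted p = 0.0526), just above the threshold of 0.05. The study itself, which tested the same samples with edgeR at an FDR cut-off of 0.05, lists *GPAT1* among its downregulated genes.

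The call on *GPAT1* moved with the processing: its adjusted p was 0.0418 with upper quartile scaling, 0.0384 with scaling to the column totals and 0.00613 without wild-type replicate 3, and it was 0.0524 to 0.247 in the other alternatives. *GPAT1* is best known for its role in the tapetum and in male fertility, unlike *GPAT4*, *GPAT6* and *GPAT8*, which make cutin. Of the 10 tapetum genes listed, 3 had a log2 fold change above 0 and 7 below 0, none with an adjusted p under 0.05. The largest change among them was that of *LAP6*, a polyketide synthase of the pollen wall, at 90.9, 111 and 69.7 CPM in wild type and 59.2, 93.2 and 77.2 CPM in the mutant. The tapetum sum was lowest in wild-type replicate 3, the wild-type sample in which *GPAT1* was lowest. In the mutant both were lowest in replicate 1, where the sum was 370 CPM. The sum was highest in mutant replicate 2, at 590 CPM, and *GPAT1* in mutant replicate 3. The part of the tapetum in the value of *GPAT1* was not tested.

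The GPATs of cutin stood on the other side. *GPAT6* (*AT2G38110*), the acyltransferase of flower cutin, was at 228, 197 and 192 CPM in wild type and 234, 246 and 239 CPM in the mutant. The groups did not overlap, and the log2 fold change was 0.23 (SE 0.09, 95% interval 0.02 to 0.43, limma adjusted p = 0.480). *GPAT4* (*AT1G01610*) was at 128, 114 and 120 CPM in wild type and 131, 138 and 139 CPM in the mutant, and *GPAT8* (*AT4G00400*) at 37.8, 37.8 and 36.3 CPM and 39.6, 38.1 and 44.8 CPM. Neither overlapped, and both intervals included 0. The log2 fold change of *GPAT4* was 0.17 (95% interval -0.007 to 0.35, limma adjusted p = 0.565). That of *GPAT8* was 0.13 (95% interval -0.07 to 0.33, limma adjusted p = 0.755).

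Among the hydroxylases, *CYP86A7* (*AT1G63710*, chromosome 1, 23632178 to 23634073) was at 45.3, 40.0 and 36.1 CPM in wild type and 48.0, 67.0 and 49.4 CPM in the mutant. The groups did not overlap, the mutant reached 135% of wild type on average, and the log2 fold change was 0.42 (SE 0.14, 95% interval 0.11 to 0.73, limma adjusted p = 0.333). Mutant replicate 2 lay well above the other mutant samples, and without it the log2 fold change was 0.27. *CYP86A4* (*AT1G01600*) was at 108, 95.4 and 97.2 CPM in wild type and 108, 154 and 117 CPM in the mutant. Mutant replicate 1 overlapped with wild type, and the log2 fold change of 0.32 (standard error 0.13, limma adjusted p = 0.490) went to 0.16 without mutant replicate 2. *CYP86A4* and *GPAT4* lie 355 bases apart on opposite strands, with their 3′ ends facing each other.

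*CYP77A6* (*AT3G10570*), the in-chain hydroxylase of flower cutin, and its paralog *CYP77A4* (*AT5G04660*) had mutant means of 122% and 107% of wild type, with overlapping groups. *CYP86A8* (*AT2G45970*) was at 108% and *CYP86A2* (*AT4G00360*) at 87.6% of wild type, and the groups of both overlapped. *DCR* (*AT5G23940*), a BAHD acyltransferase needed for the polyhydroxylated monomers of flower cutin, was the most abundant member of this step. It was at 540, 523 and 447 CPM in wild type and 538, 707 and 590 CPM in the mutant, and mutant replicate 1 fell within the wild-type range. Its log2 fold change was 0.28, and 0.17 without mutant replicate 2.

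**Figure D3:**
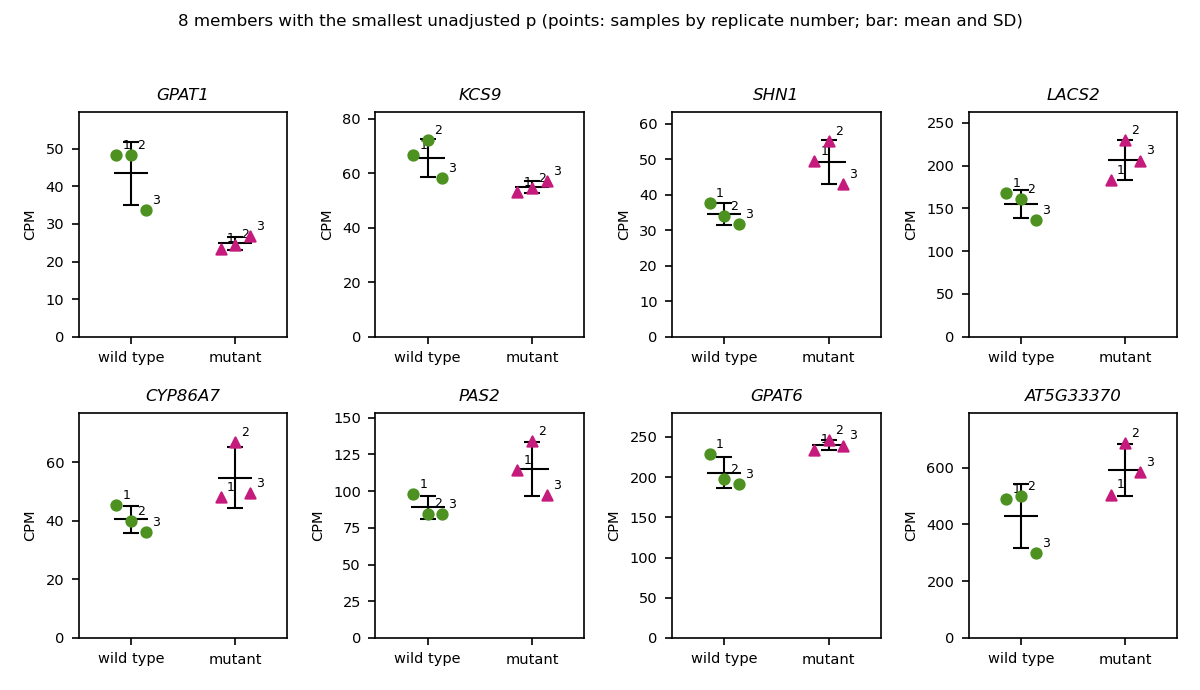
CPM of 8 members with small unadjusted p, with samples as points marked by replicate number (circles for wild type, triangles for mutant) and bars for the mean and SD of 3 samples, on axes that start at 0. *GPAT1* and *KCS9* are lower in all mutant samples, and of the other 6 only *PAS2* has overlapping groups.

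In the cell wall the polyester is assembled by enzymes of the extracellular space. *AT5G33370*, a GDSL-type lipase/acylhydrolase gene of the family that holds the cutin synthases (chromosome 5, 12602468 to 12604832), was at 490, 499.6 and 298 CPM in wild type and 505, 688 and 585 CPM in the mutant. The groups did not overlap, although 2 wild-type samples lay just under mutant replicate 1 while wild-type replicate 3 lay far under both. The log2 fold change was 0.49 (SE 0.20, 95% interval 0.04 to 0.94, limma adjusted p = 0.480), and without wild-type replicate 3 it was 0.25. *HTH* (*AT1G72970*), the oxidoreductase HOTHEAD, had a wild-type mean of 285 ± 50.3 CPM and a mutant mean of 290.5 ± 29.1 CPM (SD, n = 3). *BDG1* (*AT1G64670*), the hydrolase BODYGUARD, was at 31.5 ± 6.93 CPM and 28.7 ± 1.99 CPM. In all 3 genes wild-type replicate 3 was the lowest of the 6 samples.

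The regulators of the set are SHINE factors of the AP2/ERF class and MYB factors. All 6 that were measured had a log2 fold change above 0, with a median of 0.17, but *MYB16* (0.007) and *MYB96* (0.04) were nearly level. *SHN1* (*AT1G15360*, chromosome 1, 5283268 to 5284736), an activator of cutin and wax genes, had the largest log2 fold change above 0 of all members. It was at 37.8, 34.0 and 31.6 CPM in wild type and 49.5, 55.2 and 42.95 CPM in the mutant. Every mutant value was above every wild-type value, the mutant reached 143% of wild type on average, and the log2 fold change was 0.50 (SE 0.11, 95% interval 0.25 to 0.76, limma adjusted p = 0.124). *SHN3* (*AT5G25390*) was at 17.5, 10.7 and 19.6 CPM in wild type and 20.1, 20.4 and 17.5 CPM in the mutant, with overlap, and its log2 fold change of 0.31 was 0.058 without wild-type replicate 2.

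*MYB106* (*AT3G01140*) and *MYB16* (*AT5G15310*), which act with *SHN1* on cuticle genes in flowers, had mutant means of 110% and 99.8% of wild type. *MYB96* (*AT5G62470*), an activator of wax genes under drought, was at 61.0, 75.3 and 43.1 CPM in wild type and 59.2, 58.9 and 61.7 CPM in the mutant. The mutant values lay between the wild-type values, and the log2 fold change was 0.04 (95% interval -0.34 to 0.42). *MYB30* (*AT3G28910*) spread alike, at 23.3, 37.2 and 20.6 CPM in wild type and 31.1, 29.8 and 29.4 CPM in the mutant. The highest value exceeded the lowest by more than 1.5 times within wild type in 6 members, *KCS2*, *BDG1*, *AT5G33370*, *SHN3*, *MYB30* and *MYB96*, and within the mutant in none.

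**Figure D4:**
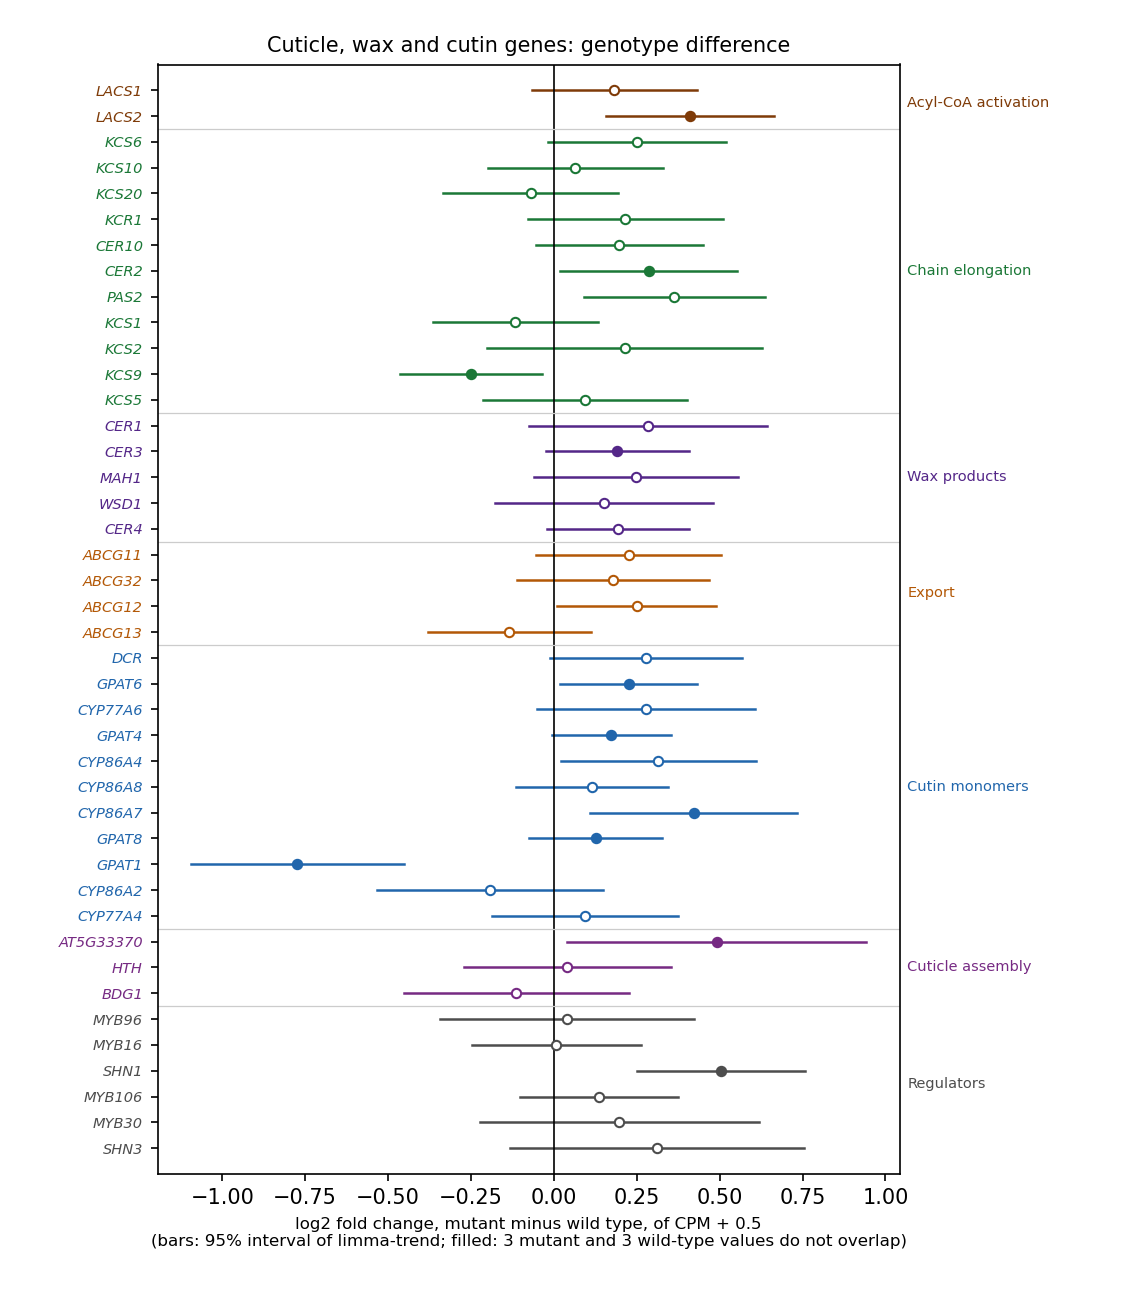
Log2 fold change, mutant minus wild type, of each tested member by role, with bars for the 95% interval of the limma fit and filled points where the 3 mutant and 3 wild-type values do not overlap. The points spread from -0.77 for *GPAT1* to 0.50 for *SHN1*, and most intervals include 0.

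Set per kilobase of annotated transcript, the members spanned a wide range of levels. In wild type *AT5G33370* (274 CPM per kb), *DCR* (258), *KCS6* (240), *CER1* (233) and *LACS1* (217) were highest, and *CYP77A4* (9.79), *MYB30* (14.1) and *SHN3* (14.9) lowest. In the mutant *AT5G33370* (378 CPM per kb), *DCR* (314), *CER1* (284) and *KCS6* (284) were the highest and *CYP77A4* (10.5) again the lowest. The paralogs *CYP77A4* and *CYP77A6* shared the most sequence among the members, at no more than 0.696% of stretches of 50 bases in the transcript.

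Of 21 further genes of the cuticle, 20 were tested (*MYB41* has no row): 13 had a higher and 7 a lower mutant mean, none had an adjusted p under 0.05, and their median log2 fold change was 0.09. The largest change among them was that of *DEWAX*, an ERF factor that represses wax genes. It was at 23.2, 43.7 and 29.01 CPM in wild type and 20.6, 8.17 and 20.9 CPM in the mutant. The groups did not overlap, but replicate 2 of each genotype lay far from the rest, and the log2 fold change was -0.99 (standard error 0.34, limma adjusted p = 0.364). Without mutant replicate 2 it was -0.56.

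Suberin is a related polyester of roots, seed coats and wounds. Of 12 suberin genes, 10 were tested, and 6 had a higher and 4 a lower mutant mean. At an unadjusted limma p under 0.05, 2 were higher and 1 lower, where 3.83% and 5.48% of all tested genes were. The sum of the 10 was 231 to 301 CPM in wild type and 252 to 360 CPM in the mutant, whose mean was 121% of wild type. *ASFT*, the feruloyltransferase that adds the aromatic part of suberin, was the only suberin gene with an adjusted p under 0.05. It was at 2.94, 5.30 and 2.74 CPM in wild type and 0.412, 0.575 and 0.453 CPM in the mutant. The groups were well apart, at low levels, and the log2 fold change was -2.04 (standard error 0.25, limma adjusted p = 0.0051). The mutant mean was 13.1% of wild type, and at such levels the added 0.5 CPM makes the log2 fold change smaller. The study also lists this gene, *AT5G41040*, among its downregulated genes. *CYP86A1*, the hydroxylase of suberin monomers, failed the filter on low values, at 0.966, 0.617 and 0.377 CPM in wild type and 0.137, 0.173 and 0.151 CPM in the mutant, where 3 reads in a sample stand behind each value. *GPAT7* has no row.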

How the data were processed

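RNA-seq libraries from 3 wild-type and 3 quadruple mutant inflorescence samples were used, each mapped to its genotype by its label. Per the labels and the study's methods, the authors prepared directional libraries, aligned them with bowtie2 to TAIR10, estimated expression with RSEM and tested with edgeR. The deposited table holds CPM on a linear scale, which the authors related to an effective library size. The authors also deposited the log2 fold change, p-value and FDR of their edgeR comparison of the genotypes, and these columns were not used. Of 21801 rows, 2 have no values. Low values were whole reads (within 0.1 read) in 93.8% to 94.8% of cases per sample, which gave depths of 15.9 to 21.2 M reads on the listed genes.

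The 21287 genes over 0.5 CPM in 3 or more samples were tested with limma-trend (limma 3.58.1, R 4.3.3) on log2(CPM + 0.5), two-sided, with Benjamini-Hochberg adjustment and a threshold of 0.05. Log2 fold changes understate the change of low genes. The 42 members and the other lists are rows of this fit. Members and lists were chosen with earlier results of these data known. Every member could be named. Given by sample are the 10 with the smallest p and members without a row. Also given are, in each of 7 roles, the most abundant member and the one with the largest change. *CER3*, *GPAT4*, *GPAT8*, *SHN3* and *MYB30*, and the wild-type values of *KCS2*, were added after their values were seen. So were *SEP3* of the floral list and *PDF1* and *ANL2* of the epidermal list. Of the other lists, the genes whose values are described had an adjusted p under 0.05 or the largest change. The exceptions are *SEP3*, *PDF1*, *ANL2* and *CYP86A1*, which was not tested.

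Names, positions and promoters came from TAIR10.1; the table holds no coordinates. The strand setting of the counting is not given in the sources used here, so overlapping genes are less certain; among the members named by sample these are *CER2*, *ABCG11* and *AT5G33370*. Steps outside R used Python 3.11.15 and pandas 2.3.3. The self-test on simulated data preceded the fit. Alternatives were other pseudocounts, filters and scalings, the replicate number as a block, and leaving out each sample.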

Additional observations from a re-analysis of the deposited data

How the results depend on the processing

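Over 13 alternatives, 34 of 42 members kept the sign of their log2 fold change. The count of members above 0, 35, ranged from 31 to 36, and the median of 0.19 from 0.13 to 0.24. The count of members with an adjusted p under 0.05, 0, was 1 (*GPAT1*) with upper quartile scaling and with scaling to the column totals, and 0 to 1 over the 6 fits that left out a sample. The count with an unadjusted p under 0.05, 11, ranged from 4 to 16 over those fits. Over all genes, the same fits called 8 to 37 genes higher and 51 to 122 genes lower, where 28 and 120 were called. Scaling to the column totals moved the median over all genes from 0.0077 to -0.014 and the log2 fold change of *MYB16* from 0.0073 to -0.015. Leaving out samples turned the sign of *KCS2* (-0.022 to 0.35), *KCS20* (-0.18 to 0.044), *KCS5* (-0.060 to 0.18), *KCS10* (-0.027 to 0.15), *HTH* (-0.11 to 0.14), *BDG1* (-0.28 to 0.035), *MYB16* (-0.071 to 0.13) and *MYB96* (-0.18 to 0.22). *ASFT* had an adjusted p under 0.05 in all 13 alternatives (0.0036 to 0.041).

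Replicate numbers are shared by the genotypes in the labels, but the deviations of same-numbered samples correlated at -0.11, -0.16 and -0.10, so the numbers were not taken as pairs. With the replicate number as a block, 5 genes were called higher and 59 lower, 6 members had an unadjusted p under 0.05, none was called, and the adjusted p of *GPAT1* was 0.174. An edgeR test on whole reads recovered from the CPM was planned and not run, because too few low values were whole. With 3 samples per genotype the standard errors of the members were 0.08 to 0.20 on the log2 scale, which limits the differences that could be told from 0. The cause of the shifts listed here was not tested.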
